A study of Danio rerio with 6 samples.

Results

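The genes described here are 8 zebrafish genes that are commonly used to recognise white blood cells or that build the actin cytoskeleton of white blood cells: ptprc, cd44a, cd44b, rac2, wasb, lcp1, coro1a and laptm5. They were chosen by gene name, and each name matched 1 row of the 32520 genes in the table. The measurements are bulk RNA sequencing of sorted skin cells, GFP+ for the mpeg1 reporter, from untreated zebrafish aged 3 months, with 6 libraries in 3 groups of 2 replicates. The groups are GFP+DsRed- cells of csf1rDM fish, GFP+DsRed+ cells of control fish and GFP+DsRed- cells of control fish, called below DsRed- csf1rDM, DsRed+ control and DsRed- control cells. The csf1rDM fish were homozygous for csf1ra j4e1 and csf1rb sa1503, mutant alleles of the paired zebrafish receptor genes for colony stimulating factor 1, whereas the controls were wild-type at these genes. All fish, controls included, carried the mpeg1-EGFP reporter, Cre recombinase under the kdrl promoter and a ubiquitous loxP-STOP-loxP-DsRedexpress cassette. The kdrl promoter is active in the endothelium that gives rise to blood, so Cre leaves DsRed permanently on in the blood stem and progenitor cells formed there and in their progeny. Cells without DsRed are those in which this switch did not happen or was not detected by the sort, so this group is defined by the absence of a mark, and GFP+DsRed+ cells of csf1rDM fish were not analysed here. Primitive macrophages, the earliest of the embryo, are not marked either, since the study derives them from mesoderm without kdrl. Citing earlier work, it states that they do not seem to contribute to mpeg1+ cells of adult skin. How many fish went into a library is not given in the sources used here.

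A leukocyte is any white blood cell, and macrophages are the leukocytes that mpeg1 reporters were made to mark. In adult zebrafish skin the mpeg1 reporter also marks metaphocytes, epithelial-like cells of non-hematopoietic origin. The protein tyrosine phosphatase CD45, encoded by ptprc, sits on the surface of nearly all leukocytes. Leukocytes crawl and engulf by rebuilding actin: the GTPase Rac2 and the Wiskott-Aldrich syndrome protein switch on the Arp2/3 complex, which nucleates branched filaments, while L-plastin (lcp1) bundles filaments and coronin 1A (coro1a) binds them. The 8 genes were compared to see how much leukocyte RNA the libraries without the DsRed mark held, relative to the marked cells.

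Values are given as CPM, which express each gene relative to the total of its library. The depth estimated from the values was 5072640 and 4024258 reads in the DsRed- csf1rDM libraries, 10069885 and 14816022 reads in the DsRed+ control libraries and 11363572 and 10448011 reads in the DsRed- control libraries, a 3.68-fold range in all. These read numbers are estimates that assume scaling followed by rounding up, and a check that made no such assumption did not read the low values as whole multiples in most libraries. The mutated gene csf1ra stood at 1.40 to 2.25 CPM in DsRed- csf1rDM cells, 1081 to 1124 CPM in DsRed+ control cells and 86.9 to 102 CPM in DsRed- control cells. The summed level of 11 macrophage markers was 451 and 570 CPM in DsRed- csf1rDM cells, 4289 and 4245 CPM in DsRed+ control cells, and 434 and 293 CPM in DsRed- control cells. In DsRed- control cells the sum came mostly from csf1ra and the lysosomal genes cd68 (179 and 116 CPM) and ctss2.2 (129 and 78.4 CPM). Genes cd68 (265 and 319 CPM) and ctss2.2 (174 and 221 CPM) made up nearly all of the sum in csf1rDM cells. Of the other markers, mfap4 and csf1rb, itself a mutated gene, were at 0 in both csf1rDM libraries. In replicates 2 and 3 of these cells, irf8 was at 4.95 and 13.7 CPM, and mrc1b at 4.75 and 7.497 CPM. Gene marco was at 0.1999 and 4.498 CPM, and c1qc at 0.3998 and 0.9996 CPM. Genes c1qa and c1qb were at 0 in replicate 2 and at 0.4998 and 0.9996 CPM in replicate 3. These libraries had the lowest estimated depth, so a 0 here does not show absence. Markers of keratinocytes, the main cells of the epidermis, were present in every library, with a sum over 9 genes of 20858 and 17626 CPM in DsRed- csf1rDM cells, 13324 and 8600 CPM in DsRed+ control cells, and 19477 and 24850 CPM in DsRed- control cells. Of 5 listed metaphocyte markers, the study names cdh1, epcam, cldnh and cd4-1 as examples of a signature drawn from an earlier publication. It reports them for these same GFP+DsRed- cells, so they are no independent check. Here cdh1, epcam, cldnh and spic were lower in DsRed+ control than in DsRed- control cells (limma). Gene cd4-1 was higher in DsRed+ control cells (limma), opposite to the direction of that signature. The sum of the 5 markers was carried by cdh1 and epcam. It was 3583 and 3621 CPM in DsRed- csf1rDM cells, 1235 and 1065 CPM in DsRed+ control cells, and 3164 and 3110 CPM in DsRed- control cells. Gene cd4-1 was at 1.60 and 1.25 CPM in DsRed- csf1rDM cells, 63.1 and 87.4 CPM in DsRed+ control cells, and 2.15 and 0.4997 CPM in DsRed- control cells. Pigment cell markers (10 genes) summed to 10.9 and 14.4 CPM in DsRed- csf1rDM cells, 32.8 and 39.0 CPM in DsRed+ control cells, and 392 and 342 CPM in DsRed- control cells.

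In control skin, 6 of the 8 genes were higher in DsRed+ than in DsRed- cells, 1 was lower (cd44a) and 1 did not pass the test (rac2). Among all 20382 genes tested, 14.6% were called higher and 10.8% lower. A call is an adjusted p below 0.05 in limma's test, Benjamini-Hochberg adjusted over all genes tested, and fold changes are on the scale of log2(CPM + 1). With the added condition of a log2 fold change beyond 2, 4 of the 8 genes were called higher (cd44b, ptprc, wasb and laptm5) and 0 lower, against 4.98% and 1.04% of all genes. All 8 had an unadjusted p below 0.05, as did 37.9% of all genes. The libraries of the 2 groups did not overlap for 7 of the 8 genes, 6 of them higher and 1 lower, where 34% of all genes were higher without overlap and 35.7% lower. The median log2 fold change was 2.10 over the 8 genes and -0.03 over all genes. In this as in every bulk comparison, fewer cells of a type and less RNA per cell cannot be told apart.

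In DsRed- csf1rDM cells set against DsRed+ control cells, 6 of the 8 genes were lower, cd44a was higher and rac2 did not pass (limma). Of all genes, 14.1% were called higher and 18.3% lower, and the medians were -1.94 over the 8 genes and -0.07 over all genes. Beyond a log2 fold change of 2, 4 genes were called lower and 0 higher, against 5.64% and 2.44% of all genes. The libraries did not overlap for any of the 8 genes, 1 higher and 7 lower, where 30.4% of all genes were higher without overlap and 37.2% lower. This comparison shares the DsRed+ libraries with the one above, so its calls are not a second, separate observation. Between DsRed- csf1rDM and DsRed- control cells, 0 of the 8 genes passed in limma, and 0 had an unadjusted p below 0.05, while 6.51% of all genes were called (3.24% higher and 3.27% lower) and 26.7% had an unadjusted p below 0.05. Here 0 of the 8 genes were higher without overlap and 1 was lower, against 25.7% and 30.3% of all genes. Gene cd44b counts among these 8 only because its DsRed+ libraries passed the filter on low values. With 2 libraries a group, an exact two-sided permutation test of a single gene cannot go below p = 0.333, so the calls rest on the model fitted across all genes.

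**Figure D1:**
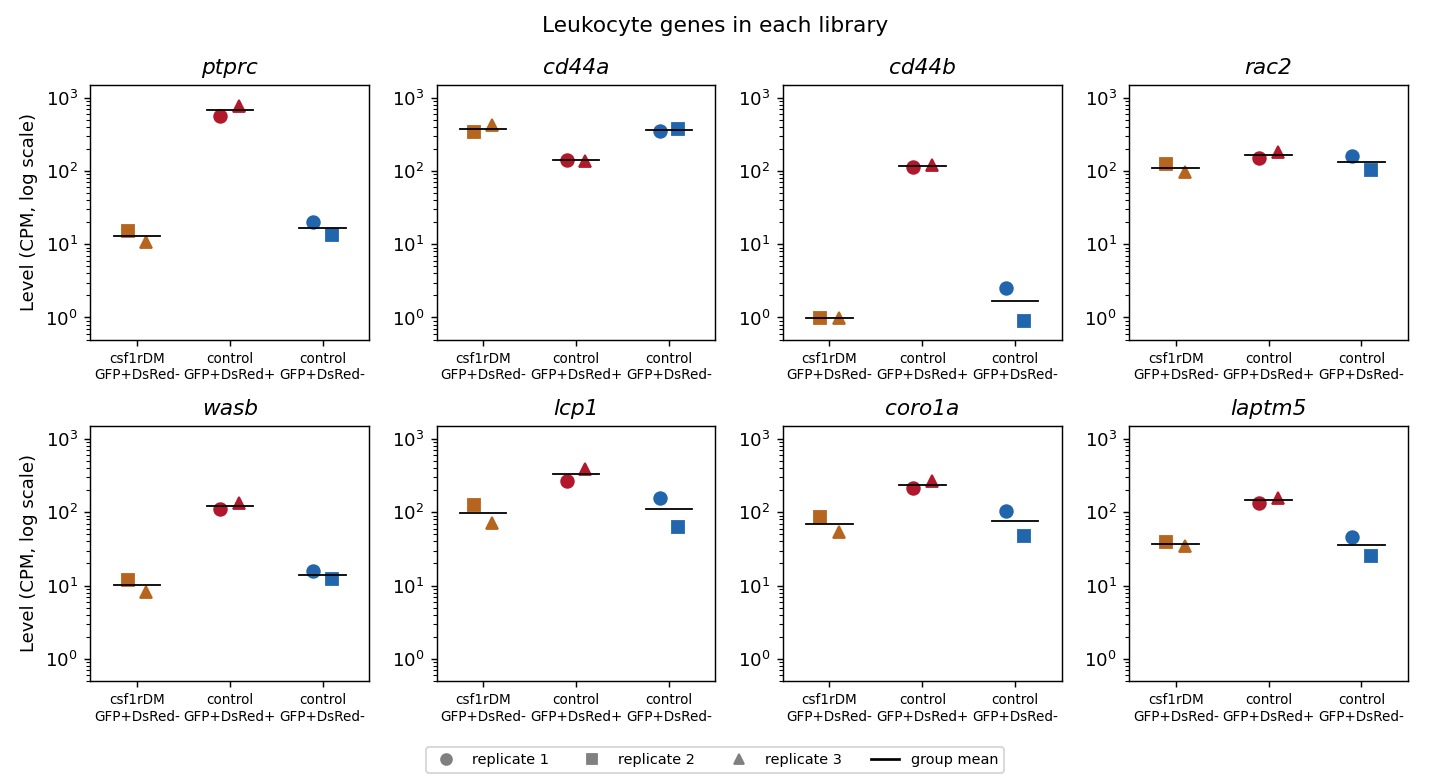
Level of each of the 8 genes in every library, in CPM on a log scale, with symbols for the replicate number and a line at the mean of each group of 2 libraries. For ptprc, cd44b and wasb the DsRed+ libraries lie far above the others, for example 571 and 785 CPM of ptprc against 10.7 to 20.2 CPM, while cd44a has the opposite order and the rac2 libraries lie close together.

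The pan-leukocyte gene ptprc (ENSDARG00000071437) was among the genes with the largest changes. It was at 15.0 and 10.7 CPM in DsRed- csf1rDM cells (replicates 2 and 3), 571 and 785 CPM in DsRed+ control cells (replicates 1 and 3), and 20.2 and 13.2 CPM in DsRed- control cells (replicates 1 and 2). Both DsRed+ libraries thus lay above all 4 others, and the csf1rDM and DsRed- control libraries overlapped. The log2 fold change was 5.48 ± 0.26 (SE) for DsRed+ control over DsRed- control cells (adjusted p = 8.55e-05, limma), with a 95% interval of 4.87 to 6.08. Of the 20382 genes tested, 60 had a larger change. For DsRed- csf1rDM over DsRed+ control cells it was -5.68 ± 0.26 (adjusted p = 4.96e-05, limma). The level left in unmarked cells was small but not at the limit of detection: an estimated 76 and 43 reads in the csf1rDM libraries and 230 and 138 reads in the DsRed- control libraries, where the floor was set at 3 reads. As a percentage of the DsRed+ mean, this was 1.89% in csf1rDM cells and 2.47% in DsRed- control cells. The study already reported ptprc in these data, as expressed by GFP+DsRed+ cells and negative in GFP+DsRed- cells. The direction found here is therefore no separate observation, and the low level left is what the study calls negative.

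The CD44 genes encode a receptor for hyaluronan, a sugar polymer of the extracellular matrix. In mammals CD44 is found on leukocytes and also on many epithelial cells. The zebrafish copies cd44a and cd44b moved in opposite directions here. Gene cd44b (ENSDARG00000089892) was at 0.999 and 1.00 CPM in DsRed- csf1rDM cells, 114 and 123 CPM in DsRed+ control cells, and 2.498 and 0.899 CPM in DsRed- control cells. The levels in unmarked cells rested on an estimated 5 and 4 reads in the csf1rDM libraries and 28 and 9 reads in the DsRed- control libraries, so cd44b passed the filter of 1 CPM in 2 libraries through the DsRed+ group. Its log2 fold change was 5.70 ± 0.31 for DsRed+ control over DsRed- control cells (adjusted p = 8.55e-05, limma), and -5.98 ± 0.31 for DsRed- csf1rDM over DsRed+ control cells (adjusted p = 6.39e-05, limma). These values depend on the pseudocount (with 3 CPM in place of 1 CPM, the first was 4.85, below the 5.31 of ptprc) and understate the difference of so low a gene. As a percentage of the DsRed+ mean, cd44b was at 0.844% in csf1rDM cells and 1.43% in DsRed- control cells.

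Gene cd44a (ENSDARG00000087863) was the exception among the 8, being highest in the unmarked cells. It was at 337 and 423 CPM in DsRed- csf1rDM cells, 141 and 137 CPM in DsRed+ control cells, and 354 and 372 CPM in DsRed- control cells. The DsRed+ libraries lay below all 4 others. Its log2 fold change was -1.16 ± 0.17 for DsRed+ control over DsRed- control cells (adjusted p = 0.00299, limma) and 1.37 ± 0.17 for DsRed- csf1rDM over DsRed+ control cells (adjusted p = 0.00116, limma). The unmarked cells held 273% of the DsRed+ mean in csf1rDM fish and 260% in controls. The keratinocyte marker sum, carried mostly by krt5 and krt91, was also higher in the unmarked libraries, as given above. Of its 9 genes, 1 (icn) was called lower in DsRed+ control than in DsRed- control cells and 8 did not pass (limma). Among all genes, 10.8% were called lower. The part of keratinocytes in the cd44a result was not tested. How reads that match both copies of cd44 were assigned is not given in the sources used here.

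Next, the genes that turn signals into actin branching were examined. Rac2 is a GTPase largely restricted to blood cells in mammals. Gene rac2 (ENSDARG00000038010) was at 125 and 95.9 CPM in DsRed- csf1rDM cells, 151 and 179 CPM in DsRed+ control cells, and 162 and 102 CPM in DsRed- control cells. Replicate 1 of DsRed- control cells lay between the DsRed+ libraries, so these groups overlapped. The log2 fold change of 0.57 for DsRed+ control over DsRed- control cells did not pass (95% interval 0.01 to 1.12, adjusted p = 0.124, limma), and neither did that of -0.65 for DsRed- csf1rDM over DsRed+ control cells (-1.20 to -0.09, adjusted p = 0.0743, limma). The unmarked cells held 66.9% of the DsRed+ mean in csf1rDM fish and 79.9% in controls.

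The Wiskott-Aldrich syndrome protein activates Arp2/3 in blood cells, and wasb is a zebrafish gene for it. Gene wasb (ENSDARG00000026350) was at 12.0 and 8.25 CPM in DsRed- csf1rDM cells, 112 and 135 CPM in DsRed+ control cells, and 15.6 and 12.4 CPM in DsRed- control cells. Both DsRed+ libraries were far above the rest, and wasb was also the single gene of the 8 whose csf1rDM libraries lay wholly below the DsRed- control libraries. Groups without overlap in that direction were found for 30.3% of all genes, and the difference did not pass. The log2 fold change was 3.26 ± 0.23 for DsRed+ control over DsRed- control cells (adjusted p = 0.000163, limma) and -3.57 ± 0.23 for DsRed- csf1rDM over DsRed+ control cells (adjusted p = 0.000108, limma). Unmarked cells held 8.20% of the DsRed+ mean in csf1rDM fish and 11.3% in controls.

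The actin-binding genes lcp1 and coro1a behaved alike and kept a larger level in unmarked cells. L-plastin, encoded by lcp1 (ENSDARG00000023188), was at 125 and 72.1 CPM in DsRed- csf1rDM cells, 271 and 390.3 CPM in DsRed+ control cells, and 156 and 62.9 CPM in DsRed- control cells. Gene coro1a (ENSDARG00000054610) was at 86.3 and 53.2 CPM in DsRed- csf1rDM cells, 212 and 265 CPM in DsRed+ control cells, and 105 and 47.9 CPM in DsRed- control cells. In both genes the DsRed+ libraries were above all others, and the csf1rDM libraries fell between the DsRed- control replicates, which themselves differed by more than a factor of 2. For DsRed+ control over DsRed- control cells the log2 fold change was 1.92 ± 0.43 for lcp1 (adjusted p = 0.0176, limma) and 1.94 ± 0.36 for coro1a (adjusted p = 0.00916, limma). For DsRed- csf1rDM over DsRed+ control cells it was -1.83 ± 0.43 for lcp1 (adjusted p = 0.0174, limma) and -1.86 ± 0.36 for coro1a (adjusted p = 0.00863, limma). Unmarked cells of csf1rDM fish held 29.8% of the DsRed+ mean of lcp1 and 29.2% of that of coro1a, and unmarked control cells 33.1% and 31.9%.

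The calls of lcp1 and coro1a depended on single libraries. Without DsRed+ control replicate 3, the comparison of DsRed+ control with DsRed- control cells gave an adjusted p of 0.103 for lcp1 and 0.0592 for coro1a in limma, and without DsRed- control replicate 2 it gave 0.078 for lcp1. The lcp1 log2 fold change ranged from 1.32 without DsRed- control replicate 2 to 2.54 without DsRed- control replicate 1. Likewise, for DsRed- csf1rDM over DsRed+ control cells the adjusted p (limma) was 0.0944 for lcp1 and 0.0531 for coro1a without DsRed+ control replicate 3, and 0.0887 for lcp1 without csf1rDM replicate 3. The direction was the same in each of these fits.

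Gene laptm5 (ENSDARG00000101785) encodes a transmembrane protein of lysosomes found mainly in blood cells in mammals. It was at 38.8 and 34.8 CPM in DsRed- csf1rDM cells, 132 and 159 CPM in DsRed+ control cells, and 46.5 and 25.4 CPM in DsRed- control cells. The DsRed+ libraries were again the highest, and the csf1rDM libraries lay between the DsRed- control replicates. The log2 fold change was 2.26 ± 0.26 for DsRed+ control over DsRed- control cells (adjusted p = 0.00116, limma) and -2.02 ± 0.26 for DsRed- csf1rDM over DsRed+ control cells (adjusted p = 0.00149, limma). Unmarked cells held 25.3% of the DsRed+ mean in csf1rDM fish and 24.7% in controls.

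The 8 genes therefore did not share a single percentage of the DsRed+ level. In DsRed- control cells the percentages ran in the order cd44b (1.43%), ptprc (2.47%), wasb (11.3%), laptm5 (24.7%), coro1a (31.9%), lcp1 (33.1%), rac2 (79.9%) and cd44a (260%). The genes stood in the same order in DsRed- csf1rDM cells, where coro1a and lcp1, at 29.2% and 29.8%, did not differ beyond the spread of their libraries. By library, cd44b and ptprc covered 0.759% to 2.985% of the DsRed+ mean over the 4 unmarked libraries, wasb 6.67% to 12.6%, and laptm5, coro1a and lcp1 together 17.4% to 47.2%, so these 3 sets did not overlap. Within the first set, cd44b and ptprc overlapped in control libraries, and within the third set the genes overlapped throughout. The lowest rac2 library, at 58.1%, was above the highest lcp1 library.

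**Figure D2:**
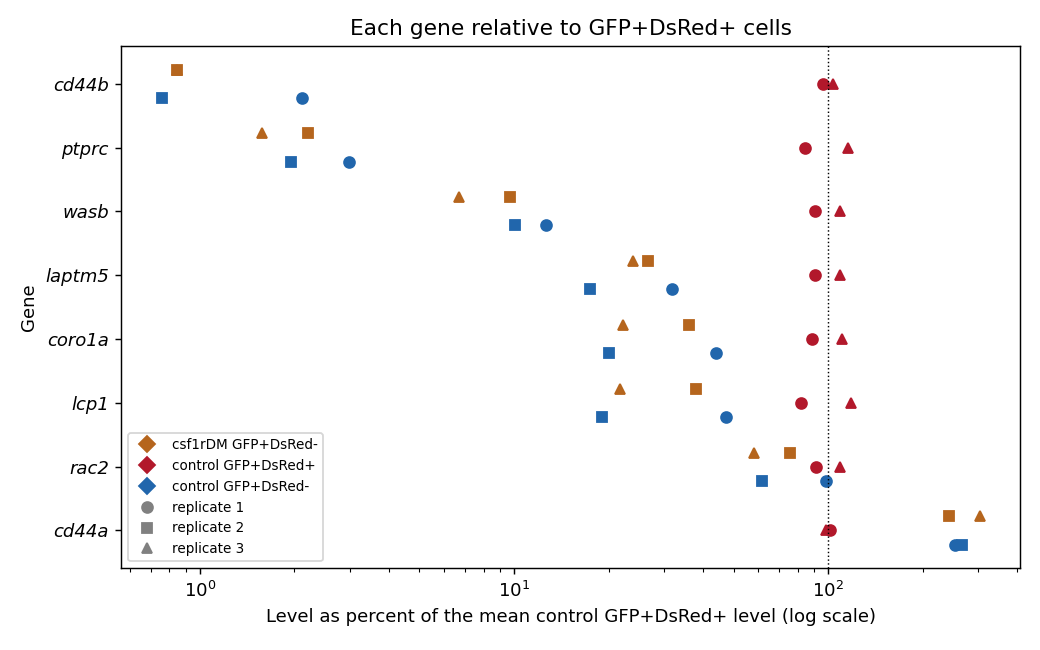
Level of each gene in each library as a percentage of its mean in the DsRed+ control libraries, on a log scale with a dotted line at 100%, with DsRed- csf1rDM libraries drawn above and DsRed- control libraries below the line of each gene. The unmarked libraries run from under 1% for cd44b to between 242% and 304% for cd44a, with csf1rDM and control libraries side by side at each gene; the csf1rDM replicates of cd44b coincide at 0.844%.

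The ratio of each gene to ptprc within a library does not depend on how the library was scaled. The ratio of lcp1 to ptprc was 8.35 and 6.74 in DsRed- csf1rDM cells, 0.474 and 0.498 in DsRed+ control cells, and 7.71 and 4.75 in DsRed- control cells. For rac2 it was 8.32 and 8.97 in DsRed- csf1rDM cells, 0.264 and 0.229 in DsRed+ control cells, and 8.002 and 7.69 in DsRed- control cells. Unmarked libraries of both genotypes therefore held far more lcp1 and rac2 per ptprc than marked ones. The wasb ratio was closer between the groups, at 0.803 and 0.771 in DsRed- csf1rDM cells, 0.197 and 0.172 in DsRed+ control cells, and 0.770 and 0.940 in DsRed- control cells. The cd44b ratio went the other way, with 0.0667 and 0.0935 in DsRed- csf1rDM cells, 0.200 and 0.156 in DsRed+ control cells, and 0.123 and 0.0679 in DsRed- control cells. These cd44b ratios are uncertain, as they rest on an estimated 5 and 4 reads in the csf1rDM libraries and 28 and 9 in the DsRed- control libraries. Because the ratio also reflects gene length, it can be compared between libraries but not between genes.

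The comparison of DsRed- csf1rDM with DsRed- control cells asks whether the loss of csf1r changed the leukocyte RNA of unmarked cells. None of the 8 genes passed in limma. Gene cd44b, however, entered this comparison only through its DsRed+ libraries and was not tested when the unmarked groups were fitted alone. At such low levels its test cannot decide whether it differed. The estimates were small for most genes, but their intervals allow moderate differences. The log2 fold change was -0.20 for ptprc (95% interval -0.81 to 0.40, adjusted p = 0.648, limma), -0.27 for cd44b (-0.997 to 0.45) and 0.21 for cd44a (-0.18 to 0.60). It was -0.08 for rac2 (-0.63 to 0.47) and -0.30 for wasb (-0.84 to 0.24). The widest intervals were those of lcp1, at 0.09 (-0.92 to 1.10), and coro1a, also at 0.09 (-0.77 to 0.95), and laptm5 stood at 0.24 (-0.37 to 0.85). The groups overlapped in 7 of the 8 genes, the exception being wasb. The median over the 8 genes was 0.003, against -0.05 over all genes. Scaling shifted the log2 fold change of a gene by a median of 0.14 in this comparison and of 0.20 in DsRed+ control over DsRed- control cells, and without it the lcp1 and coro1a estimates became -0.061 and -0.063.

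Some markers of other cells did differ between the unmarked groups, where 3.24% of all genes were called higher in csf1rDM cells and 3.27% lower. Of 5 tested B cell markers, 2 were called higher in csf1rDM cells, the immunoglobulin genes ighm and ighz. Gene ighm was at 88.7 and 70.1 CPM in DsRed- csf1rDM cells, 8.35 and 3.85 CPM in DsRed+ control cells, and 0.799 and 0.4997 CPM in DsRed- control cells. Over 8 B cell markers the sum was 122 and 94.5 CPM in DsRed- csf1rDM cells, 228 and 285 CPM in DsRed+ control cells, and 18.8 and 6.05 CPM in DsRed- control cells. Different genes carried these sums. In csf1rDM cells it was mostly ighm, but in DsRed+ control cells mostly blnk (164 and 226 CPM) and cd22 (53.0 and 50.6 CPM). Against DsRed+ control cells, 2 of the 5 tested markers were higher in DsRed- csf1rDM cells and 2 lower, where 14.1% and 18.3% of all genes were. Gene ighz was again among those higher. The B cell receptor chain gene cd79a, chosen after its values were seen, was at 1.20 and 1.00 CPM in DsRed- csf1rDM cells, 0.7996 and 1.45 CPM in DsRed+ control cells, and 1.95 and 0.7995 CPM in DsRed- control cells. Other listed B cell genes, also chosen so, were higher in DsRed- csf1rDM than in DsRed- control cells. Genes igic1s1 (3.00 and 0.75 against 0.0999 and 0.20 CPM) and pax5 (0.80 and 0.25 against 0.0999 and 0 CPM) were not tested. Gene blnk (24.4 and 20.6 against 14.8 and 3.65 CPM) did not pass. The means of cd79b and cd22 were lower in DsRed- csf1rDM cells. Of 11 macrophage markers, 2 were higher in DsRed- csf1rDM than in DsRed- control cells (cd68 and ctss2.2, of the lysosome) and 1 was lower (csf1ra, one of the mutated genes), and of 8 tested T and natural killer cell markers none was called. Of 8 tested rows of neutrophil and mast cell markers 2 were higher, both named mmp13a, the larger with 17.3 and 13.7 CPM in DsRed- csf1rDM cells, 2.199 and 2.30 CPM in DsRed+ control cells, and 0.799 and 2.05 CPM in DsRed- control cells. The smaller, at 3.20 and 2.25 CPM in DsRed- csf1rDM cells, was below 1 CPM in every other library. It too passed the filter only through the group where it was high. The neutrophil gene mpx, chosen after its values were seen, did not pass. It was at 1.40 and 30.3 CPM in DsRed- csf1rDM cells, 2.499 and 0.849 CPM in DsRed+ control cells, and 0.999 and 0.4997 CPM in DsRed- control cells. Of 3 tested thrombocyte markers thbs1b was higher, and of 9 tested pigment cell markers 7 were lower. In DsRed+ control over DsRed- control cells, 4 of 8 tested T and natural killer cell markers were higher and 0 lower. Those higher were cd8a, cd4-1, cd8b and il7r, where cd4-1 is also among the listed metaphocyte markers. The 4 that did not pass, given after their values were seen, mostly had lower means in DsRed+ control cells. The means in DsRed+ control and DsRed- control cells were 5.92 and 10.1 CPM for tcf7 and 0.475 and 1.52 CPM for cd247l. For zap70 they were 1.22 and 1.42 CPM, and for lck, the exception, 9.44 and 7.82 CPM. Of 8 tested neutrophil and mast cell rows, 3 were higher there (csf3r, il6r and cxcr1), 1 was lower (npsn) and 4 did not pass. Of all genes, 14.6% were called higher and 10.8% lower. The DsRed+ reference of the percentages thus also held RNA of the markers called higher, while mpx was at or below 2.499 CPM there. Whether T cells or neutrophils were among the DsRed+ cells was not tested. All of these calls are from limma. These marker calls were not recomputed without single libraries, and the part of these cells in the levels of the 8 genes was not tested.

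The members were then set beside their paralogs, the related genes of the same families, in DsRed+ control over DsRed- control cells. Of all genes, 14.6% were called higher there and 10.8% lower. Of 5 tested Rac and RhoG genes, 2 were higher in DsRed+ control than in DsRed- control cells, rhoga (log2 fold change 1.82) and rhogb (1.05), and 3 did not pass: rac1a (-0.47), rac1b (-0.63) and rac3b (-0.38). Of 6 tested genes of the WASP and WAVE family, wasf2 was higher (0.68), wasla and waslb, which encode the widely expressed N-WASP, were lower (-1.14 and -0.93), and 3 did not pass. Among the 3 was wasa, the other zebrafish gene for the Wiskott-Aldrich syndrome protein, at 46.3 and 30.8 CPM in DsRed- csf1rDM cells, 16.5 and 24.6 CPM in DsRed+ control cells, and 51.0 and 28.2 CPM in DsRed- control cells. Its estimate of -0.67 (95% interval -1.45 to 0.10) had the opposite sign to the 3.26 of wasb, and their intervals did not overlap.

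Of 2 tested plastins 1 was lower and 0 higher, whereas the coronins went in mixed directions. The plastin pls3, which is found in many solid tissues in mammals, was lower in DsRed+ control cells (-1.17), with 399.8 and 365 CPM in DsRed- csf1rDM cells, 199.96 and 133 CPM in DsRed+ control cells, and 382 and 480 CPM in DsRed- control cells. The other plastin, pls1, was near 1 to 2 CPM in every library and did not pass. Of 6 tested coronins, coro7 was higher (1.67), coro2a and coro2ba were lower (-0.89 and -1.29) and 3 did not pass, among them coro1ca (-0.12), at 199 to 277 CPM over the 6 libraries. Gene coro2ba passed the filter on low values only through its DsRed- control libraries. Neither laptm4a (0.27) nor laptm4b (-0.49) passed. All of these calls are from limma, and a member was not tested against its paralogs.

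**Figure D3:**
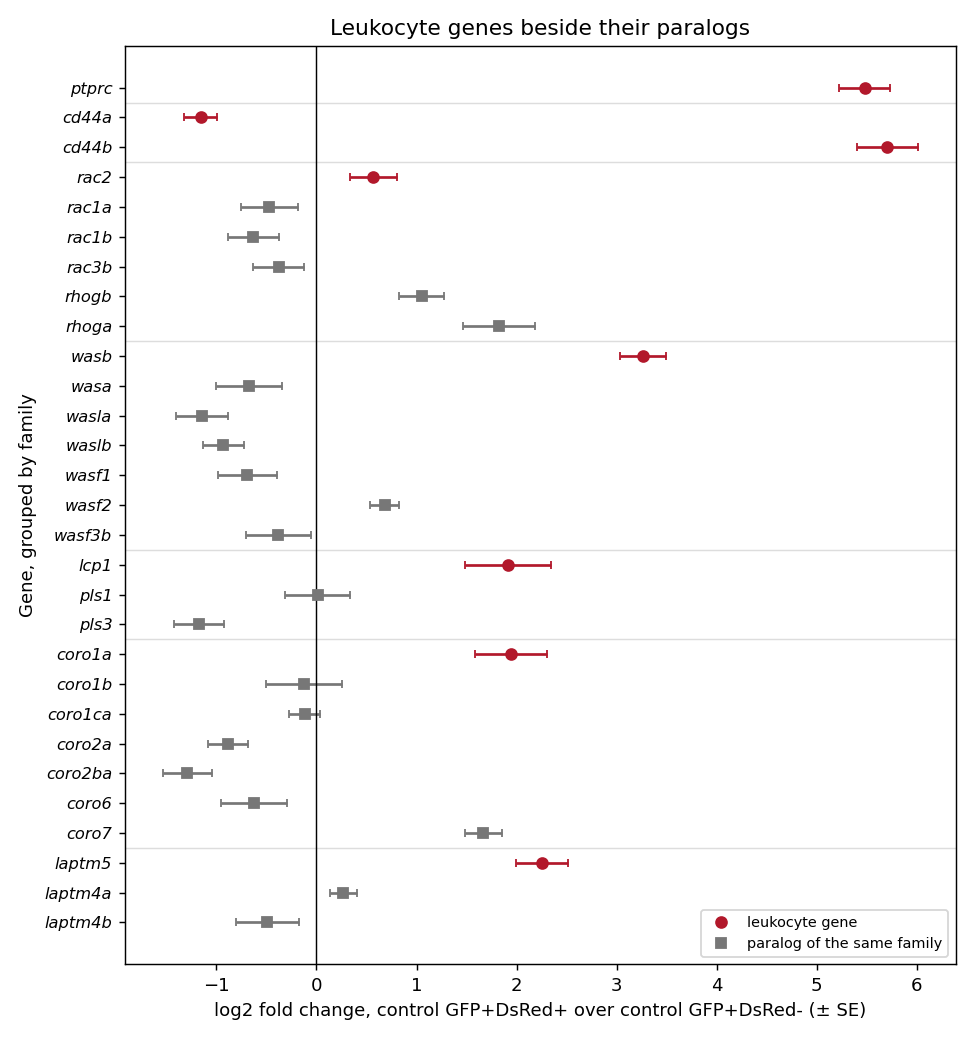
Log2 fold change of DsRed+ control over DsRed- control cells, with its standard error, for the 8 leukocyte genes (circles) and the tested paralogs of their families (squares), one family per block. The leukocyte genes reach 5.70, the paralogs lie between -1.29 and 1.82, and cd44a (-1.16) is the single leukocyte gene below 0.

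The Arp2/3 complex, on which WASP proteins act, was tested through 13 of its 14 listed genes. In DsRed+ control over DsRed- control cells 5 genes were higher (arpc1b, actr2b, actr3, actr2a and arpc2), arpc5lb was lower and 7 did not pass. Of all genes, 14.6% were called higher and 10.8% lower. The median log2 fold change was 0.52, against -0.03 over all genes. The largest change was that of arpc1b, whose human counterpart is the subunit prominent in blood cells. It was at 105 and 78.8 CPM in DsRed- csf1rDM cells, 263 and 351 CPM in DsRed+ control cells, and 129.6 and 74.5 CPM in DsRed- control cells, a log2 fold change of 1.83 ± 0.27 (adjusted p = 0.00361, limma). The unmarked cells held 29.95% of the DsRed+ mean of arpc1b in csf1rDM fish and 33.2% in controls, close to the percentages of lcp1 and coro1a. Of the 13, 1 was higher and 7 were lower in DsRed- csf1rDM over DsRed+ control cells, against 14.1% and 18.3% of all genes. In DsRed- csf1rDM over DsRed- control cells none of the 13 passed, against 6.51% of all genes called.

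Other regulators of leukocyte actin were mostly higher in DsRed+ cells. Of 24 tested genes, 16 were called higher in DsRed+ control than in DsRed- control cells, 1 was lower and 7 did not pass. Of all genes, 14.6% were called higher and 10.8% lower. The median log2 fold change was 1.36, against -0.03 over all genes. The smallest adjusted p values belonged to myo1g, a class I myosin of blood cells (log2 fold change 4.57), arhgap15, a GTPase-activating protein for Rac (3.55), arhgap45b (3.20) and msna, a moesin that ties actin to the membrane (1.73). Gene myo1g was at 7.496 and 6.25 CPM in DsRed- csf1rDM cells, 97.2 and 122 CPM in DsRed+ control cells, and 4.497 and 4.05 CPM in DsRed- control cells. The gene called lower was lsp1a (-1.04), a relative of mammalian LSP1, a leukocyte actin-binding protein. The most abundant of the list were arhgdig (0.55), which did not pass, and cotl1 (0.80) and dock8 (1.83), which did. Of the 24, 2 were higher and 15 lower in DsRed- csf1rDM over DsRed+ control cells, against 14.1% and 18.3% of all genes. In DsRed- csf1rDM over DsRed- control cells none passed, against 6.51% of all genes called.

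Surface and signalling genes of leukocytes covered a range from -2.00 to 6.28 in log2 fold change. Of 17 tested, 10 were higher in DsRed+ control than in DsRed- control cells, 2 were lower and 5 did not pass. Of all genes, 14.6% were called higher and 10.8% lower. The median log2 fold change was 1.36, against -0.03 over all genes. The largest change was in spi1b, which encodes the myeloid transcription factor PU.1, at 2.40 and 3.00 CPM in DsRed- csf1rDM cells, 401 and 427 CPM in DsRed+ control cells, and 6.55 and 3.95 CPM in DsRed- control cells (log2 fold change 6.28 ± 0.23, adjusted p = 8.55e-05, limma). It was followed by the kinase gene syk (3.23), the selectin ligand selplg (3.12) and the phosphatase ptpn6 (2.89). The integrin itgam (-2.00) and the widely expressed tetraspanin cd9b (-1.15) were lower. The other spi1 copy, spi1a, chosen for mention after its values were seen, was at 36.9% of its DsRed+ mean in DsRed- csf1rDM cells and 35.7% in DsRed- control cells, where spi1b was at 0.652% and 1.27%.

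The percentages of the tested actin and surface genes were spread as widely, from 0.652% and 1.27% for spi1b (csf1rDM and DsRed- control cells) to 546% and 258% for lsp1a and 193% and 489% for itgam, the last 2 beyond any member in 1 of the 2 groups. Several lay near single members, and not all of these are named here. In DsRed- csf1rDM cells syk was at 9.89%, ptpn6 at 10.7% and selplg at 12.8% of the DsRed+ mean, and in DsRed- control cells syk was at 12.3%, ptpn6 at 15.9% and selplg at 13.9%, beside 8.20% and 11.3% for wasb. Near the lcp1 and coro1a values lay dock8 (36.3% in csf1rDM and 33.1% in DsRed- control cells), msna (34.7% and 35.1%) and, chosen after their values were seen, wipf1b (29.0% and 31.9%) and fmnl1a (28.2% and 33.1%). Also chosen so, elmo1 (28.9% and 44.1%), parvg (28.1% and 32.7%), fermt3b (31.3% and 25.8%) and itgb2 (27.2% and 21.0%) lay near laptm5, coro1a or lcp1. Macrophage markers all lay below the DsRed+ level. The highest were cd68, at 44.7% in csf1rDM and 22.6% in DsRed- control cells, and ctss2.2, at 32.4% and 17.0%. The other macrophage markers lay at or below 6.46% in csf1rDM and 8.57% in DsRed- control cells. The 8.57% was that of csf1ra, and the rest lay at or below 4.31% in DsRed- control cells. Among them, mrc1b was at 0.964% and 0.641%, and c1qc at 0.295% and 0.716%.

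Among the paralogs, Arp2/3, actin and surface genes, 2 passed between DsRed- csf1rDM and DsRed- control cells, both lower. Of all genes, 3.27% were called lower in that comparison. Gene runx3, a transcription factor of T cells and Langerhans cells in mouse, was at 191 and 97.9 CPM in DsRed- csf1rDM cells, 570.4 and 775 CPM in DsRed+ control cells, and 428 and 466 CPM in DsRed- control cells (log2 fold change -1.55 ± 0.32, adjusted p = 0.0381, limma). The coronin coro2ba was at 0.7996 and 0.7497 CPM in DsRed- csf1rDM cells, 0.3998 and 0.6496 CPM in DsRed+ control cells, and 3.10 and 3.00 CPM in DsRed- control cells (-1.09 ± 0.25, adjusted p = 0.0483, limma). It passed the filter on low values only through DsRed- control cells, the group where it was high, so its call is no support. Neither call was kept without csf1rDM replicate 3 (adjusted p = 0.0809 for runx3 and 0.113 for coro2ba, limma) or without either of the DsRed+ control libraries. The runx3 call was also lost without DsRed- control replicate 1 (0.141) or 2 (0.202), and that of coro2ba without csf1rDM replicate 2 (0.0682). The 44 calls in these lists for DsRed+ control over DsRed- control cells also thinned when a library was left out: 20 of 43 were kept without DsRed+ control replicate 3, 30 of 43 without replicate 1 of that group, 21 of 43 without DsRed- control replicate 2 and 33 of 43 without its replicate 1. None changed direction. With other processing, 36 of 44 were kept without TMM factors and 40 of 44 without the filter on low values. The runx3 and coro2ba calls were both lost without that filter, when the compared groups were fitted alone and with a replicate block. Of these 2 calls, 1 was lost with median-of-ratios factors and 1 with a pseudocount of 0.5 CPM. Both were kept without TMM factors and with a pseudocount of 3 CPM.

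Replicates of the same group differed together across the leukocyte genes. In DsRed- csf1rDM cells 7 of the 8 genes were higher in replicate 2 than in replicate 3 after scaling, with a median log2 ratio of 0.43, although cd44b, on an estimated 5 and 4 reads, was level (0.01), and keratinocyte markers were higher in 6 of 9 (median 0.23). In DsRed+ control cells 1 of the 8 genes was higher in replicate 1 than in replicate 3 (median -0.22), and keratinocyte markers in 9 of 9 (0.74). In DsRed- control cells 7 of the 8 genes were higher in replicate 1 than in replicate 2 (median 0.65), and keratinocyte markers in 1 of 9 (-0.55). In both control groups the keratinocyte markers thus moved opposite to most of the leukocyte genes. Of all genes, 51.3% to 51.8% were higher in the replicate with the lower number. Gene cd44a went against the others in each group, and the widest gaps were those of lcp1, at 1.20 in DsRed- control cells, and coro1a, at 1.01. The actin regulators showed the same in DsRed- control cells, with 23 of 24 higher in replicate 1, and so did the surface genes, with 15 of 17. What these differences come from was not tested.

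**Figure D4:**
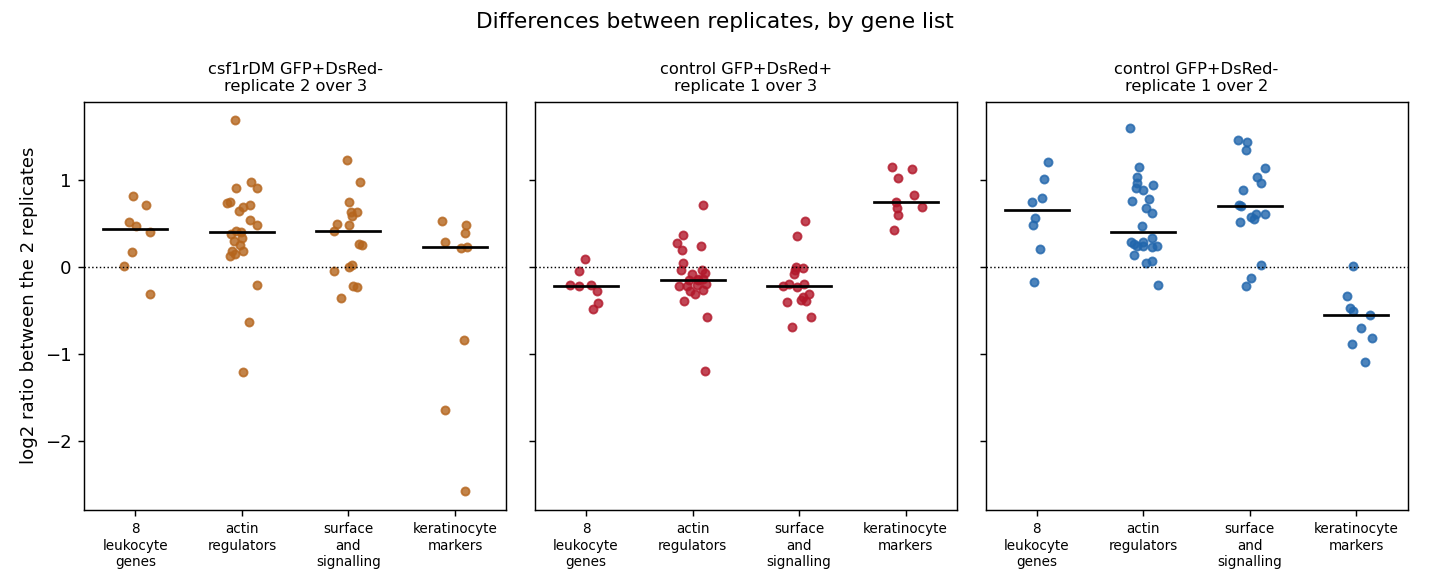
Log2 ratio between the 2 replicates of each group, lower replicate number over higher, one point per gene, for the 8 leukocyte genes, the actin regulators, the surface and signalling genes and the keratinocyte markers, with a line at each median. In the DsRed- control panel most leukocyte genes lie above 0 (median 0.65 for the 8 genes) and most keratinocyte markers below it (median -0.55), and in the DsRed+ control panel the order is turned round.

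Finally, the patterns over the 6 libraries were compared gene by gene. Likeness was measured as the root mean square difference of centred log2(CPM + 1) values, where 0 is an identical pattern, and is a description with no test. Since the libraries fall into 3 groups, genes with like differences between groups score as alike. Among the 8 genes the closest pair was lcp1 and coro1a (0.0866, Pearson's r = 0.996), followed by coro1a and laptm5 (0.214) and ptprc and cd44b (0.229). The most distant pair was cd44a and cd44b (3.37).

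Among the 8760 named genes with a mean of at least 10 CPM, the closest to ptprc were cd44b, tppp (0.252) and the kinase gene matk (0.257), and the closest to cd44b were matk (0.0836), the amino acid transporter gene slc7a7 (0.198) and ptprc. For wasb they were lta4h, a leukotriene A4 hydrolase gene (0.106), syk (0.143) and slc7a8a (0.178). Gene lta4h was at 2.40 and 1.75 CPM in DsRed- csf1rDM cells, 27.4 and 38.8 CPM in DsRed+ control cells, and 3.10 and 2.30 CPM in DsRed- control cells. Genes lcp1 and coro1a had each other, znf831 (0.120 and 0.0808) and parvg, which encodes a parvin of focal contacts (0.138 and 0.0936), as neighbours.

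For laptm5 the closest genes were dnase2b (0.0614), gpr137ba (0.0667) and gnao1a (0.0838). For rac2 they were atp10d (0.0551), sept6, a septin (0.0716), and stard3 (0.0721), all with a narrow spread over the groups. For cd44a they were mboat1 (0.0824), vclb, which encodes vinculin of cell adhesions (0.0839), and the transcription factor gene nfia (0.0880). Gene vclb was at 67.4 and 84.7 CPM in DsRed- csf1rDM cells, 30.2 and 31.9 CPM in DsRed+ control cells, and 76.4 and 75.4 CPM in DsRed- control cells, below all other libraries in both DsRed+ ones as cd44a was.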

How the data were processed

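The deposited table holds a signal per gene for 6 libraries. Per the labels and the methods, the authors prepared libraries with the Ovation SoLo kit, aligned reads with STAR (2.5.4b) to GRCz11, counted them per Ensembl gene with HTSeq (0.11.0) and used edgeR. The values show, although the sources used here do not state it, that each library was scaled to totals between 20008939 and 20013750 with values rounded up. Read numbers were estimated from the step between low values, assuming rounding up, and were not used in tests. The step, fitted to these same values, matched 100% of low values in each library. A check of the values as plain multiples was not met in most libraries, although values rounded up after scaling need not be plain multiples. Because that check was not met, the planned count models were replaced by limma 3.58.1 (R 4.3.3).

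Values were scaled by trimmed mean of M-values (TMM) factors computed here, from 0.922 to 1.128, and taken as log2(CPM + 1). CPM in the text are relative to the library total. Percentages of the DsRed+ mean use these CPM without TMM factors, whereas fold changes use the factors, so they do not convert into each other. Genes reaching 1 CPM in 2 or more libraries were fitted over all 6, with Benjamini-Hochberg adjustment within each comparison, and the procedure was tested on simulated data. Groups and replicate numbers came from the labels. The series' design text calls the replicates biological; where they are not separate fish, p-values measure only the spread between samples.

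The members and gene lists were chosen with earlier results of these data known. Gene ptprc and some macrophage and metaphocyte markers are genes the study names in these libraries. Named genes are all members, the paralogs and Arp2/3 genes, for other lists up to 4 genes per direction with the smallest adjusted p and the 3 most abundant, and the 3 genes most alike to each member among genes of at least 10 CPM. Exceptions were mpx, mfap4, c1qb, irf8 and marco, chosen after their values were seen, and the genes so marked above. Alternatives were other scalings, filters and pseudocounts, fits of the compared groups, leaving out each replicate and a replicate block. Sequences and coordinates of the members were not used here. Figures were drawn with matplotlib 3.10.9.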

Additional observations from a re-analysis of the deposited data

How the results depend on the processing

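Of the 8 genes, 7 were called in DsRed+ control over DsRed- control cells, and the other scalings, filters, pseudocounts and the fit of the compared groups alone each called 7 as well. Leaving out a replicate gave 5 to 7, also in DsRed- csf1rDM over DsRed+ control cells. In DsRed- csf1rDM over DsRed- control cells 0 were called with each scaling, filter and pseudocount. None was called with these groups fitted alone, where cd44b was too low to be tested. Over all genes the calls moved more, in DsRed+ control over DsRed- control cells from 5180 to between 1949 and 6115 without a replicate, in DsRed- csf1rDM over DsRed+ control cells from 6610 to between 3095 and 6518, and in DsRed- csf1rDM over DsRed- control cells from 1327 to between 115 and 1599, 713 with the compared groups alone and 697 with no filter on low values.

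Estimates that reversed were all in DsRed- csf1rDM over DsRed- control cells, where no gene passed: -0.061 for lcp1 and -0.063 for coro1a without TMM factors, and, without a replicate, -0.51 to 0.71 for lcp1, -0.42 to 0.62 for coro1a, -0.44 to 0.058 for ptprc, -0.67 to 0.13 for cd44b, -0.36 to 0.23 for rac2 and -0.13 to 0.64 for laptm5. The cause was not tested. The cd44b log2 fold change in DsRed+ control over DsRed- control cells was 4.85 with a pseudocount of 3 CPM and 6.10 without DsRed- control replicate 1.

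Deviations of libraries with the same replicate number had correlations over genes of -0.423, 0.031 and 0.0213 for numbers 1, 2 and 3. A number joins only 1 pair of libraries, so these values cannot tell whether it pairs the samples. With the replicate number as a block, 5 of the 8 genes were called in DsRed+ control over DsRed- control cells and 5 in DsRed- csf1rDM over DsRed+ control cells, 0 in the remaining comparison, where rac2 became 0.013, and calls over all genes were 2245, 3756 and 67 in the same order of comparisons. Of the 44 calls among paralogs, Arp2/3, actin and surface genes in DsRed+ control over DsRed- control cells 20 were kept with the block. A crossed pairing of the control libraries, chosen after seeing the data, called 8 of the 8 genes and 9110 genes in all. The planned edgeR and DESeq2 fits on recovered reads were not run. With 2 libraries a group and an estimated 4 to 28 reads of cd44b in unmarked libraries, small differences in such genes were not detectable at this depth.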
